A study of Homo sapiens with 8 samples.

Results

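The inflammatory chemokine and cytokine genes described here are CXCL1, CXCL2, CXCL3, CXCL5, CXCL8, CCL20, IL6, IL1A, IL1B and LIF. They were chosen by gene symbol, not by a cut on their values, but with earlier results of these data known. They make up 10 of the 27475 human genes in the table. All 10 symbols were found, each in a single row. RNA was sequenced from RT112 and UM-UC-3, established human bladder cancer cell lines that were kept in RPMI 1640 or DMEM. Both lines received siRNA for 72 h, at 100 pmol per well of a 6-well plate with INTERFERin as the transfection reagent. In the siPAI-1 groups, 3 pooled siRNAs targeted PAI-1, and the genotype label is PAI-1 knockdown. The Scr groups received a pool of 3 scrambled siRNAs and are titled siControl. Each of the 4 groups has 2 libraries, numbered 1 and 2. Untransfected cells were not analysed here, so every value comes from cells that had been transfected. The siRNAs act transiently. Whether the 2 libraries of a group came from separate cultures is not stated in the labels, so p-values measure the spread between these libraries, which may be technical.

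CXCL1, CXCL2, CXCL3, CXCL5 and CXCL8 are CXC chemokines with the ELR motif, which bind the receptor CXCR2 and attract neutrophils. CCL20 attracts cells that carry CCR6. IL1A and IL1B encode the interleukin-1 cytokines, which signal through IL1R1 and its partner IL1RAP and act through NF-kB and AP-1 on many of the other genes of the group. IL6 and LIF signal through gp130, the product of IL6ST, to the JAK kinases and STAT3. In bladder cancers, these proteins can come from the tumour cells as well as from the immune and stromal cells around them, whereas the cell lines studied here contain tumour cells only.

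The promoters are shown because most of these genes are textbook targets of NF-kB, and because they group the genes by sequence in a way that can be set beside their mRNA levels. Sequences and coordinates are from RefSeq on GRCh38.p14, the build that the files use (GRCh38). The RefSeq promoter table has entries for 9 of the 10 genes, with LIF as the remaining gene. It covers 250 bases before to 50 bases after each transcription start. The stretches below end at the base before the start, read 5′ to 3′ on the strand of the gene, and span 100 bases, or 150 for CXCL8. Capitals mark a kappaB-like motif, GGNNNTTCC on either strand, or the AP-1 motif, TGANTCA on either strand. The motifs do not overlap each other.
CXCL1 (chr4:73869293-73869392, plus strand): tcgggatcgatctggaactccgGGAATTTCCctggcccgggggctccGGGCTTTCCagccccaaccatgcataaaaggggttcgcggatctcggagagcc
CXCL2 (chr4:74099196-74099295, minus strand): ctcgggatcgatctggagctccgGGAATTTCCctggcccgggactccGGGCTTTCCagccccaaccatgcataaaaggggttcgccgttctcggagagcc
CXCL3 (chr4:74038690-74038789, minus strand): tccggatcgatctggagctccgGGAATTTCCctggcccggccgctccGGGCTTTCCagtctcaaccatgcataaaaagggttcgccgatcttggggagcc
CXCL5 (chr4:73998678-73998777, minus strand): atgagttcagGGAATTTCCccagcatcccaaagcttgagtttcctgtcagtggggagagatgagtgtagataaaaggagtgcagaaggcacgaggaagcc
CXCL8 (chr4:73740419-73740568, plus strand): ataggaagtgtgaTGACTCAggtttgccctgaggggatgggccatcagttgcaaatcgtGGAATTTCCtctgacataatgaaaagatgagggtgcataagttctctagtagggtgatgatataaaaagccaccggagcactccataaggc
CCL20 (chr2:227813742-227813841, plus strand): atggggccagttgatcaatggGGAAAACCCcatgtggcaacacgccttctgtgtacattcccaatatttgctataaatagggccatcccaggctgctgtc
IL6 (chr7:22727100-22727199, plus strand): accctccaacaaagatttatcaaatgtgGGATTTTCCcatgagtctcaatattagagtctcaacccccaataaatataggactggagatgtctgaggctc
IL1A (chr2:112784494-112784593, minus strand): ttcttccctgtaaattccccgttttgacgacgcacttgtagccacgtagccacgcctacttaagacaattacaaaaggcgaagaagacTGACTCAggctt

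A kappaB-like motif was found in 7 of the 9 genes with a promoter entry and in 20.1% of all 35116 promoter entries of the same length. CXCL1 and CXCL3 had 1 such motif starting 78 bases and another starting 53 bases before the transcription start. CXCL2 had them at 77 and 53 bases. CXCL5 had 1 at 90 bases, CXCL8 at 91, CCL20 at 79 and IL6 at 72 bases. The AP-1 motif was found in CXCL8, 137 bases before the start, and in IL1A, 12 bases before and 39 bases after the start. It was found in 7.71% of all entries. IL1B had neither motif in this window. These genes are well known targets of both factors, so the counts describe the sequences and are no independent evidence, and a match is not shown to be a bound site. CXCL1, CXCL2 and CXCL3 were alike beyond the motifs. Over the 250 bases before the start, CXCL1 and CXCL3 were 81.4% identical, CXCL2 and CXCL3 73.4%, and CXCL1 and CXCL2 70.1%, whereas each was 52.3% to 53.9% identical to CXCL5 and 43.9% to 47.9% to CXCL8.

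**Figure D1:**
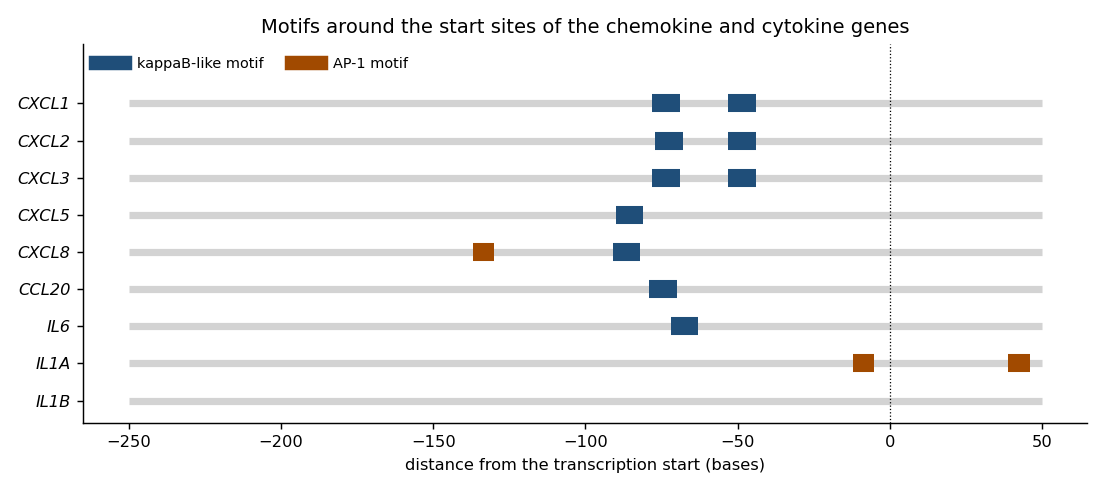
Positions of the motifs in the promoter entries of 9 genes. The x axis is the distance from the transcription start in bases, grey bars are the window searched, blue blocks kappaB-like motifs and brown blocks AP-1 motifs. The kappaB-like motifs of 7 genes lie between 91 and 45 bases before the start, and the bar of IL1B is empty.

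Levels are given as TPM, the share of a transcript among all transcripts of a library after scaling to gene length, with a fixed total per library. Differences are on the log2(TPM + 0.1) scale, which understates the change of genes near 0, and genes with an entry of 0 are called listed at 0. Tests were two-sided with limma, and a gene was called where its p adjusted over all genes tested by Benjamini-Hochberg (BH) was under 0.05. From the steps in the deposited values, the depth was estimated at 29.5 to 34.1 M reads per library, so that 0.1 TPM of a short gene such as CCL20 stood for 1 or 2 reads. PTPRC, the pan-leukocyte marker, was at most 0.03 TPM in every library, and 3 of 10 leukocyte markers were listed at 0 in all RT112 libraries and 4 of 10 in all UM-UC-3 libraries. CD68, which is also a lysosomal gene, made up most of the summed leukocyte markers of 14.81 to 20.48 TPM in RT112 and 273.4 to 280.0 TPM in UM-UC-3. Endothelial markers summed to 0.13 to 2.35 TPM, and fibroblast markers to 17.73 to 25.61 TPM in RT112, mostly LUM, and 133.2 to 152.6 TPM in UM-UC-3, mostly COL3A1. Epithelial markers summed to 7491 to 8058 TPM in RT112 and 207.7 to 226.6 TPM in UM-UC-3, and 8 luminal urothelial markers to 885.6 to 1001 and 7.23 to 7.87 TPM. In UM-UC-3 most of this sum was PPARG, at 4.53 to 6.05 TPM, while the other luminal markers were at or below 1.38 TPM in every library. Their part in the differences between the lines was not tested.

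The first comparison set RT112 against UM-UC-3 in the Scr libraries, to describe what each line expresses without siRNA against PAI-1. The 2 lines expressed different members. IL1A and IL1B mRNA was abundant in RT112 and near 0 in UM-UC-3, while CXCL1, CXCL2 and CXCL3 were expressed in UM-UC-3 and listed at or near 0 in RT112. CXCL8 had higher values in RT112 at low levels, CCL20 was scarce in both lines, LIF was expressed in both lines, IL6 was near 0 in both, and CXCL5 was listed at 0 in all 8 libraries. Of the 9 members tested, 4 were called higher in RT112 (IL1A, IL1B, CXCL8 and CCL20), 3 were called lower (CXCL1, CXCL2 and CXCL3), and LIF and IL6 were not called. The calls came to 77.8% of the members, beside 51.6% of all 19201 genes tested, of which 25.3% were higher and 26.3% lower in RT112, so a difference between these lines was common among genes of any kind. The values of 5 members in RT112 lay above UM-UC-3 without overlap and of 3 below, beside 34.6% and 37.7% of all genes tested. The median difference of the members was 0.46 and that of all genes tested was -0.06 (log2, RT112 minus UM-UC-3). Leaving out any 1 of the 4 libraries lowered the number of genes called from 9909 to between 5698 and 6564. Without RT112 Scr library 1 or 2 or UM-UC-3 Scr library 1 or 2, 2 or 3 members were called higher and 2 or 3 lower.

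IL1B and IL1A encode the secreted and the mostly cell-associated form of interleukin-1. IL1B was at 29.11 and 30.15 TPM in the RT112 Scr libraries and at 0 and 0.09 TPM in UM-UC-3 Scr. IL1A was at 15.26 and 15.25 TPM in RT112 Scr and at 0.05 and 0 TPM in UM-UC-3 Scr. All RT112 libraries were far above all UM-UC-3 libraries for both genes, and the UM-UC-3 values stood for at most 2.9 estimated reads per library. The difference was 7.75 ± 0.39 for IL1B (log2, SE, n = 2 and 2; limma, BH-adjusted p = 0.000651) and 6.97 ± 0.32 for IL1A (limma, BH-adjusted p = 0.000555). By absolute difference IL1B ranked 186th and IL1A 314th of 19201 genes. Leaving out any 1 library kept both calls, with differences of 7.29 to 8.22 for IL1B and 6.68 to 7.26 for IL1A.

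CXCL1, CXCL2 and CXCL3 encode closely related neutrophil attractants and showed the opposite pattern. CXCL1 was at 3.13 and 2.86 TPM in UM-UC-3 Scr, CXCL2 at 3.82 and 2.33 TPM, and CXCL3 at 2.61 and 3.13 TPM. In RT112 Scr, CXCL1 and CXCL2 were listed at 0 in both libraries, and CXCL3 was at 0.05 and 0 TPM. The groups did not overlap for any of the 3 genes, and 37.7% of all genes tested were lower in RT112 without overlap. Within UM-UC-3, the 3 genes overlapped in level. The BH-adjusted p from limma was 0.000847 for CXCL1, 0.00142 for CXCL2 and 0.00156 for CXCL3, for which the difference was -4.59 ± 0.36 (log2, SE). No fold is given for CXCL1 and CXCL2, since RT112 was listed at 0. Without RT112 Scr library 1 or 2, the adjusted p of CXCL2 was 0.0516 and 0.0518. Reads could be shared among these genes: of the 75-base windows in their annotated transcripts, 7.56% of those of CXCL2, 4.57% of CXCL3 and 0.233% of CXCL1 occurred in another of these genes, so their levels relative to each other are less certain than their joint presence.

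CXCL5, another CXC chemokine of the same cluster with a kappaB-like motif, was listed at 0 in all 8 libraries and could not be tested. CXCL8 encodes interleukin-8, the best known neutrophil attractant. It was at 2.59 and 2.94 TPM in RT112 Scr and at 0.85 and 0.21 TPM in UM-UC-3 Scr. RT112 was higher without overlap, as for 34.6% of all genes tested. On the log2 scale used, the UM-UC-3 libraries differed about as much as the lower RT112 and the higher UM-UC-3 library did. The difference was 2.40 ± 0.63 (log2, SE; limma, BH-adjusted p = 0.0378). This call was lost without RT112 Scr library 1 (adjusted p = 0.255), without RT112 Scr library 2 (0.275) and without UM-UC-3 Scr library 2, where the difference was 1.59 (0.0587), as well as with a pseudocount of 0.01 TPM (0.0556) and without the trend term of limma (0.0622).

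CCL20, the ligand of CCR6, was at 0.16 and 0.08 TPM in RT112 Scr and listed at 0 in both UM-UC-3 Scr libraries. The RT112 values stood for about 2.6 and 1.4 reads. The limma test gave a BH-adjusted p of 0.0452, and no fold is given because UM-UC-3 was listed at 0. The call was lost with a pseudocount of 1 TPM (adjusted p = 0.0991) and without UM-UC-3 Scr library 1 (0.185) or 2 (0.186), so at this depth CCL20 is only known to be scarce in both lines.

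LIF, a cytokine of the IL-6 family, was at 9.83 and 11.72 TPM in RT112 Scr and at 8.65 and 7.03 TPM in UM-UC-3 Scr. The RT112 libraries were higher without overlap, as for 34.6% of all genes tested. The difference of 0.46 did not pass the test, with a 95% interval from -0.03 to 0.94 (log2; limma, BH-adjusted p = 0.101). IL6 was at 0.07 and 0 TPM in RT112 Scr and at 0.14 and 0 TPM in UM-UC-3 Scr. These groups overlapped, and the interval of the difference, from -1.84 to 1.34, shows that a change of 2-fold either way was not detectable at this level (limma, BH-adjusted p = 0.736).

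**Figure D2:**
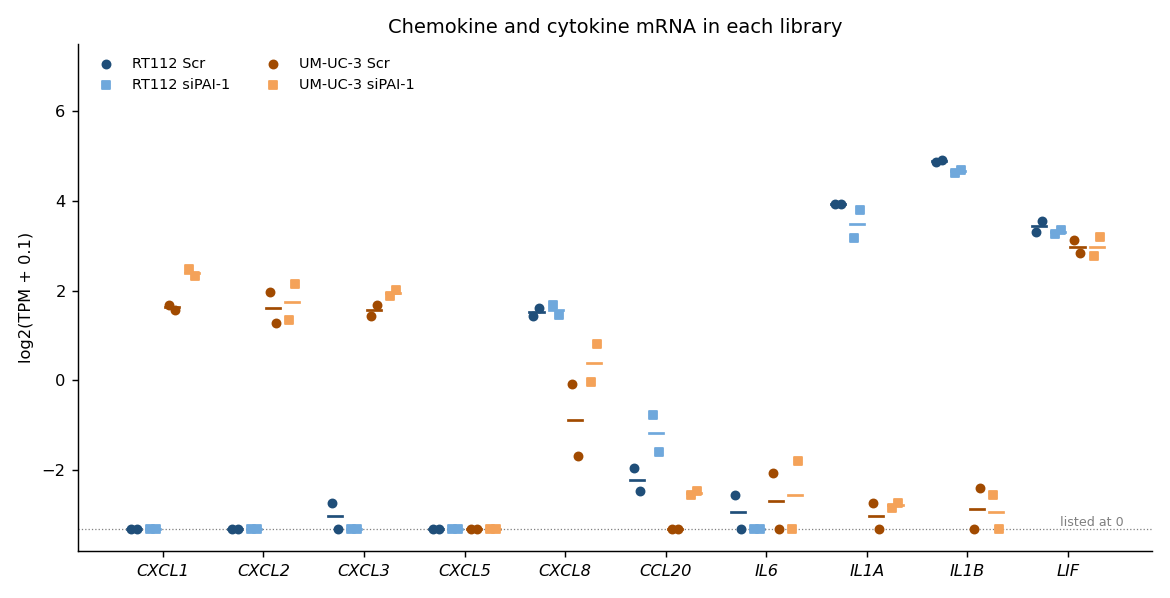
Level of each chemokine and cytokine mRNA in the 8 libraries. The y axis is log2(TPM + 0.1), points are single libraries, short lines are group means (n = 2), circles are Scr and squares siPAI-1, and the dotted line marks genes listed at 0. CXCL1, CXCL2 and CXCL3 lie on the dotted line or next to it in RT112 and above 1 on this scale in UM-UC-3, IL1A and IL1B do the reverse, and LIF is close to 3 in all groups.

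Within RT112 Scr, the order of levels was IL1B, IL1A, LIF, CXCL8 and CCL20, and each gene was above the next in both libraries, with CXCL3 and IL6 overlapping at the bottom. IL1B lay above 70.9% of the 17216 genes with a value above 0 in this group, IL1A above 58.7%, LIF above 52.5% and CXCL8 above 37.1%. In UM-UC-3 Scr, LIF came first, at rank 8760 of 17513 genes. CXCL2, CXCL1 and CXCL3 followed, above 39.4% to 40.0% of genes and not separable from each other, then CXCL8 above 26.3%, and IL6, IL1B and IL1A overlapped near 0. Summed over the 10 genes, the levels were 46.67 to 60.14 TPM in the 4 RT112 libraries and 15.65 to 24.22 TPM in the 4 UM-UC-3 libraries. In bulk RNA, fewer cells that express a gene and less of its RNA per cell cannot be told apart.

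The siPAI-1 libraries, which the first comparison did not use, gave the contrast between the lines again under the other siRNA pool. IL1A was at 8.90 and 13.88 TPM in RT112 siPAI-1 and at 0.04 and 0.05 TPM in UM-UC-3 siPAI-1, a difference of 6.27 ± 0.34 (log2, SE; limma, BH-adjusted p = 0.000755). IL1B was at 24.73 and 25.82 TPM in RT112 siPAI-1 and at 0.07 and 0 TPM in UM-UC-3 siPAI-1, a difference of 7.60 ± 0.35 (limma, BH-adjusted p = 0.000602). Both genes remained near 0 in UM-UC-3 and high in RT112. CXCL1, CXCL2 and CXCL3 were listed at 0 in both RT112 siPAI-1 libraries and were called higher in UM-UC-3, with BH-adjusted p from limma of 0.000659, 0.00159 and 0.000771. LIF was not called (difference 0.32, 95% interval -0.19 to 0.83, BH-adjusted p = 0.224). CXCL8 was again higher in RT112 without overlap, by 1.18 ± 0.38, and CCL20 by 1.33 ± 0.40, and neither passed the limma test (BH-adjusted p = 0.0636 and 0.0555). Of all genes tested, 36.6% were higher in RT112 siPAI-1 without overlap. Of the 9 members tested, 2 were called higher in RT112 and 3 lower, beside 26.2% and 26.1% of all 19359 genes tested, or 52.2% in both directions. Without RT112 siPAI-1 library 1 or 2, CCL20 was called (adjusted p = 0.0381 and 0.0225) and CXCL2 was not (0.0554 and 0.056). Without UM-UC-3 siPAI-1 library 1, IL6 was called lower in RT112 (0.0201).

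The genome order of the genes was set beside these levels, since 5 members lie in the CXC chemokine cluster of chromosome 4 and IL1A and IL1B next to each other on chromosome 2. On chromosome 4, the order along the chromosome was CXCL8 (chr4:73740569-73743716), CXCL1 (chr4:73869393-73871308), CXCL5 (chr4:73995642-73998677), CXCL3 (chr4:74036589-74038689) and CXCL2 (chr4:74097040-74099195). In Scr, among 16 genes across 1479 kb, from RASSF6 to PARM1, 6 were called higher in RT112 and 6 higher in UM-UC-3. A further 4 were not tested because they were listed at 0. Among all genes tested, 25.3% were called higher and 26.3% lower in RT112, or 51.6% in both directions. The CXCL8 call was lost in several settings, as given above. The calls ran mostly in blocks: RASSF6 and CXCL8 were called higher in RT112, the next called genes, CXCL6, CXCL1, CXCL3, CXCL2 and MTHFD2L, higher in UM-UC-3, and AREG, BTC and PARM1 at the far end higher in RT112. EPGN and EREG, between these blocks, were called higher in RT112 and in UM-UC-3, respectively. CXCL8 and CXCL1 lie near each other and were called in opposite directions, and so were the neighbouring epidermal growth factor family genes EREG and AREG: AREG was at 31.0 and 32.7 TPM in RT112 Scr against 0.60 and 0.30 TPM in UM-UC-3 Scr, and EREG at 0.08 and 0.21 TPM against 12.79 and 10.62 TPM.

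In Scr, the chromosome 2 genes that were called all went the same way. IL1A (chr2:112773925-112784493) and IL1B (chr2:112829751-112836779) belong to 11 genes across 473 kb, from CKAP2L to PSD4. Of these, 6 were called higher in RT112 in Scr, beside 25.3% of all genes tested, 4 were not called and 1 was not tested. CKAP2L, next to IL1A, had lower values in RT112 Scr without overlap, as had 37.7% of all genes tested. In siPAI-1, 6 neighbours of IL1A and IL1B were tested. Of these, 4 were called higher in RT112 and 1 lower, beside 26.2% and 26.1% of all genes. IL1RN, which encodes the natural antagonist of the interleukin-1 receptor, was at 50.42 and 51.09 TPM in RT112 Scr, above IL1A and IL1B in the same libraries, and at 0 and 0.08 TPM in UM-UC-3 Scr (difference 8.57 ± 0.36, log2, SE; limma, BH-adjusted p = 0.000487). PSD4, a gene at the end of this stretch that encodes no cytokine, was at 19.65 and 19.36 TPM against 0 and 0.04 TPM. CCL20 (chr2:227813842-227817556), IL6 (chr7:22727200-22731998) and LIF (chr22:30240453-30246759) lie apart from these clusters.

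**Figure D3:**
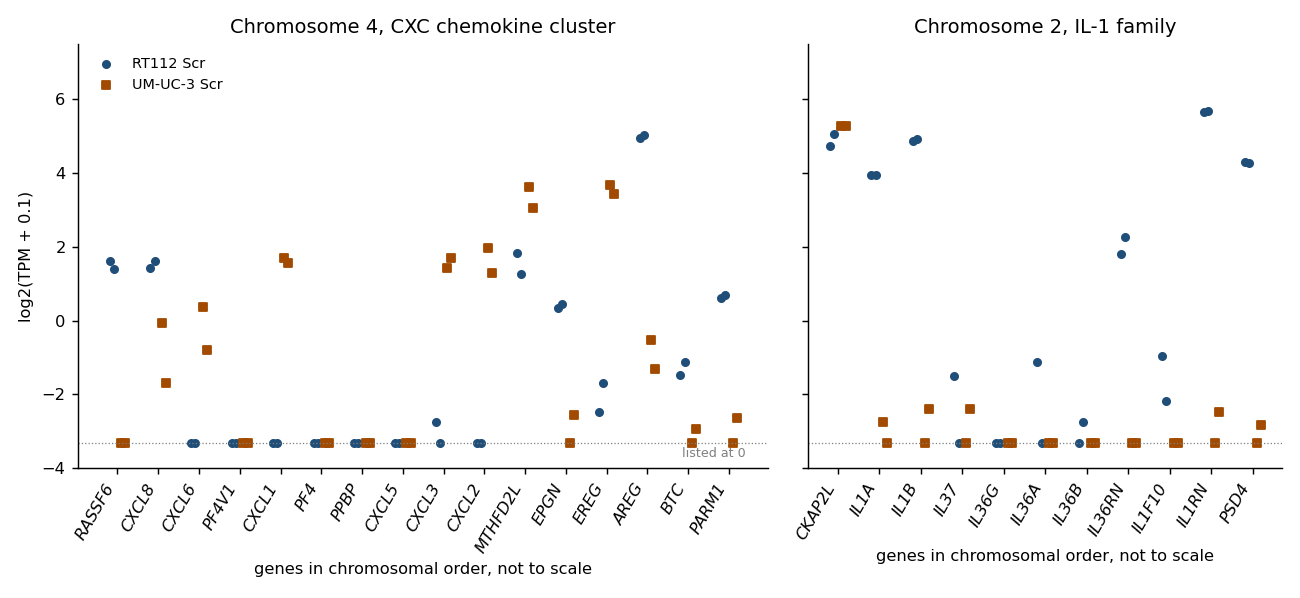
Levels of the genes around the CXC chemokine cluster and around IL1A and IL1B in the Scr libraries. The y axis is log2(TPM + 0.1), genes stand in chromosomal order without scale, each point is a library (blue circles RT112, brown squares UM-UC-3) and the dotted line marks genes listed at 0. On chromosome 4 the UM-UC-3 points are higher from CXCL6 to MTHFD2L wherever a gene was detected and the RT112 points on both sides, except at EREG, and on chromosome 2 the RT112 points of IL1A, IL1B, IL1RN and PSD4 lie near 4 to 6 with UM-UC-3 near the dotted line.

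Of 9 receptor and antagonist genes of these ligands tested in Scr, 3 were called higher and 3 lower in RT112. This is 66.7% of them, beside 51.6% of all genes tested. IL6ST (gp130, the shared receptor chain for IL-6 and LIF) was at 10.79 and 11.97 TPM in RT112 Scr and at 75.66 and 100.3 TPM in UM-UC-3 Scr (difference -2.93 ± 0.17, log2, SE; limma, BH-adjusted p = 0.000798). LIFR, the LIF-binding chain, was at 1.29 and 0.29 TPM against 6.57 and 6.09 TPM, and IL1R1, the signalling interleukin-1 receptor, at 0.09 and 0.39 TPM against 1.62 and 1.95 TPM. The line with high IL1A and IL1B mRNA had the lower IL1R1 mRNA, but the other interleukin-1 receptor genes did not share this direction. IL1RAP overlapped, at 5.79 and 10.19 TPM in RT112 Scr and at 6.47 and 8.72 TPM in UM-UC-3 Scr. The decoy receptor IL1R2 was higher in RT112 Scr, at 0.99 and 0.63 TPM, and listed at 0 in UM-UC-3 Scr. CXCR1 was listed at 0 in all 8 libraries, and CXCR2, the receptor for CXCL1, CXCL2, CXCL3 and CXCL8, was at 0.98 and 0.80 TPM in RT112 Scr and listed at 0 in UM-UC-3, the line with the CXCL1, CXCL2 and CXCL3 mRNA.

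Other secreted factors and the regulators of these genes were called in both directions, and their counts stand beside 25.3% higher and 26.3% lower (51.6% called) among all genes tested. Of 11 other chemokine genes tested, 1 was called higher and 3 lower in RT112. CCL2, a monocyte attractant, was at 0 and 0.15 TPM in RT112 Scr and at 95.82 and 83.42 TPM in UM-UC-3 Scr, above every member in either line (difference -9.15 ± 0.50, log2, SE; limma, BH-adjusted p = 0.000747). Of 15 other cytokines, 5 were higher and 3 lower. Among NF-kB subunits, inhibitors, kinases and feedback or target genes, 7 of 24 were higher and 9 lower. PTGS2 (cyclooxygenase-2), named here after its values were seen, was at 55.61 and 60.92 TPM in RT112 Scr against 0.32 and 0.09 TPM. Of 11 AP-1 and C/EBP genes 5 were higher and 5 lower, of 9 kinase, STAT and feedback genes downstream of the IL-6 family 1 was higher and 4 were lower, and of 9 genes for proteins that bind cytokine mRNAs 2 were higher and 6 were lower. Of 8 genes for IL-1 processing and release 4 were higher and 2 lower, of 7 non-chemokine neighbours of the CXC cluster 5 and 2, of 8 neighbours of IL1A and IL1B 4 and 0, and of 11 interferon-stimulated genes 5 and 5. The share called was 36.4% of the other chemokines, 53.3% of the other cytokines and 55.6% of the IL-6 family pathway, and 66.7% to 100.0% in the other lists apart from the neighbours of IL1A and IL1B. With 7 to 24 genes per list, nothing particular to a list is read from these counts.

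The knock-down comparisons ask whether these genes changed with siPAI-1. Each line was fitted on its own, and the Scr libraries are the same as in the comparison of the lines. In UM-UC-3, CXCL1, CXCL3, CXCL8 and CCL20 had higher values in both siPAI-1 libraries than in both Scr libraries, and no member was called. Of 9 members tested, 0 were called by limma at a BH-adjusted p under 0.05, as were 0 of all 18528 genes (0.0%), and 0 members passed the looser rule of an unadjusted p under 0.05 with at least a 2-fold difference, which 1.95% of all genes did. At an unadjusted p under 0.05 alone, 1 member was higher, beside 482 genes higher (2.6%) and 632 lower (3.41%). The values of 4 members lay above Scr without overlap and of 0 below, beside 15.1% and 17.1% of all genes. The median difference of the members was 0.24, and that of all genes -0.01 (log2).

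CXCL1 was the member with the smallest unadjusted p. It was at 3.13 and 2.86 TPM in Scr and at 5.46 and 4.90 TPM in siPAI-1, so both knock-down libraries were higher. The difference was 0.77 with a 95% interval from 0.22 to 1.32 (log2; limma, unadjusted p = 0.0152, BH-adjusted p = 0.791), and it stayed between 0.69 and 0.85 when any 1 library was left out. CXCL3, at 2.61 and 3.13 TPM in Scr, was at 3.56 and 3.97 TPM in siPAI-1 (difference 0.38, interval -0.24 to 1.01; BH-adjusted p = 0.858). CXCL2, at 3.82 and 2.33 TPM in Scr, was at 2.46 and 4.36 TPM in siPAI-1. The CXCL2 groups overlapped, and its interval ran from -0.91 to 1.17 (BH-adjusted p = 0.955), so no direction was detectable for it at this spread.

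CXCL8 was at 0.85 and 0.21 TPM in UM-UC-3 Scr and at 0.88 and 1.66 TPM in siPAI-1. The nearest libraries of the 2 groups differed by little, and the difference of 1.28 had an interval from -0.49 to 3.04 (log2; limma, BH-adjusted p = 0.858). Without UM-UC-3 Scr library 2 it was at the low end of a range from 0.47 to 2.08. Both Scr libraries list CCL20 at 0, and it was at 0.07 and 0.08 TPM in siPAI-1, about 1.3 and 1.4 reads (limma, BH-adjusted p = 0.835). IL6 was at 0.14 and 0 TPM in Scr and at 0 and 0.19 TPM in siPAI-1, and IL1A and IL1B stayed at or under 0.09 TPM in all 4 libraries. LIF was at 8.65 and 7.03 TPM in Scr and at 6.78 and 9.01 TPM in siPAI-1. The LIF groups overlapped, with a difference of 0.00 and an interval from -0.54 to 0.54 (BH-adjusted p = 1.0). CXCL8, IL1A, IL1B and CCL20 are on gene lists for which the study combined its RNA-seq with PAI-1 ChIP-seq. The lists rest in part on these same libraries, so the values of these genes here are no independent evidence of a direction.

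In RT112, IL1A and IL1B had lower values and CCL20 higher values in both siPAI-1 libraries, and again no member was called. Of 7 members tested, 0 were called by limma (0.0% of all 18437 genes) and 0 passed the looser rule, which 2.22% of all genes did. At an unadjusted p under 0.05 alone, 1 member was lower, beside 446 genes lower (2.42%) and 617 higher (3.35%). The values of 3 members did not overlap with Scr, beside 32.7% of all genes, and those of 2 members lay below Scr, beside 14.7%. The median difference of the members was -0.23, and that of all genes 0.01 (log2).

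IL1B was at 29.11 and 30.15 TPM in RT112 Scr and at 24.73 and 25.82 TPM in siPAI-1. Both knock-down libraries were lower, and the spread within each group was small. The difference was -0.23 with a 95% interval from -0.44 to -0.01 (log2; limma, unadjusted p = 0.0412, BH-adjusted p = 0.838). IL1A was at 15.26 and 15.25 TPM in Scr and at 8.90 and 13.88 TPM in siPAI-1. The lower of the knock-down libraries stood apart from the other 3, and the difference of -0.45 had an interval from -1.07 to 0.17 (BH-adjusted p = 0.838). It ranged from -0.77 to -0.14 when 1 library was left out, with the smallest size without RT112 siPAI-1 library 1.

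CCL20 was at 0.16 and 0.08 TPM in RT112 Scr and at 0.49 and 0.23 TPM in siPAI-1, or about 2.6 and 1.4 reads against 8.8 and 3.9 reads. Both knock-down libraries were higher, and the interval of the difference of 1.03 ran from -0.28 to 2.34 (log2; limma, unadjusted p = 0.0975, BH-adjusted p = 0.838). CXCL8 was at 2.59 and 2.94 TPM in Scr and at 3.10 and 2.66 TPM in siPAI-1, with overlap (difference 0.06, interval -0.64 to 0.75, BH-adjusted p = 0.971). LIF was at 9.83 and 11.72 TPM in Scr and at 9.45 and 10.17 TPM in siPAI-1, also with overlap (difference -0.13, interval -0.53 to 0.27, BH-adjusted p = 0.877). These intervals leave room for changes of less than 2-fold in CXCL8 and LIF. CXCL1 and CXCL2 were listed at 0 in all 4 RT112 libraries, and CXCL3 and IL6 in both siPAI-1 libraries, so mRNA of CXCL1, CXCL2 and CXCL3 was not detected with siPAI-1 in this line.

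**Figure D4:**
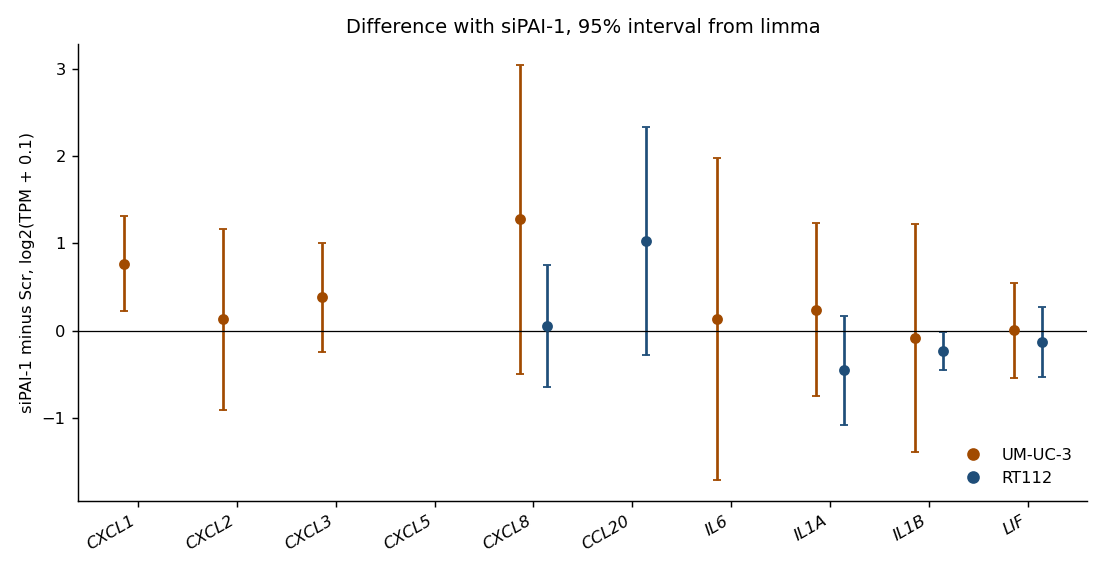
Difference of siPAI-1 from Scr for the 10 chemokine and cytokine genes in each line. The y axis is log2(TPM + 0.1), points are the limma estimates and bars their 95% intervals, brown for UM-UC-3 and blue for RT112. Genes with no point were listed at 0 in at least 1 of the groups. The bar of CXCL1 in UM-UC-3 lies above 0 and that of IL1B in RT112 just below 0, and all other bars cross 0.

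Whether the knock-down differences themselves differed between the lines was tested with an interaction term in a fit over all 8 libraries. Of 9 members tested 0 were called by limma, as were 0 of all 20274 genes (0.0%), and 0 members were past an unadjusted p under 0.05, which 6.76% of all genes were. The nearest was CXCL1, whose difference in RT112 minus that in UM-UC-3 was -0.77 (log2, 95% interval -1.78 to 0.24, unadjusted p = 0.113, BH-adjusted p = 0.836). For CXCL8 it was -1.22 (-3.13 to 0.69, BH-adjusted p = 0.846) and for IL1A -0.70 (-1.88 to 0.49, BH-adjusted p = 0.846). CXCL1 was listed at 0 in RT112, so its value is the UM-UC-3 difference with a wider interval. The siPAI-1 minus Scr differences of the CXC chemokines and of IL1A and IL1B are therefore not shown to differ between the lines. For CXCL1 and CXCL2, which were listed at 0 in RT112, the fit could not compare the effects.

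Among the receptors, other chemokines and cytokines, NF-kB, AP-1, IL-6 pathway, mRNA-binding, IL-1 processing, neighbouring and interferon-stimulated genes, none was called by limma in either knock-down comparison. In UM-UC-3, 0 of 114 tested genes of these lists were called. Before adjustment, 3 of them were higher and 6 lower with p under 0.05, beside 2.6% higher and 3.41% lower among all genes. In RT112 the counts were 0 of 117, with 0 higher and 6 lower, beside 3.35% higher and 2.42% lower among all genes. Nothing particular to these lists is read from these counts. The receptors IL6ST, LIFR and IL1R1 had knock-down differences of 0.15, 0.24 and 0.40 in UM-UC-3 and of -0.11, -0.60 and 0.21 in RT112 (log2), all with intervals across 0. IL6R, named after its values were seen, was at 3.57 and 4.13 TPM in UM-UC-3 Scr and at 2.41 and 1.82 TPM in siPAI-1. Both siPAI-1 libraries were lower, as for 17.1% of all genes tested, and IL6R was not called. In RT112 the IL6R groups overlapped, at 2.97 and 0.94 TPM in Scr and at 1.93 and 2.38 TPM in siPAI-1. CCL2 was at 95.82 and 83.42 TPM in UM-UC-3 Scr and at 86.15 and 84.98 TPM in siPAI-1. These groups overlapped, with an interval of the difference from -0.27 to 0.15 (log2; BH-adjusted p = 0.888).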

How the data were processed

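RNA from 8 libraries (2 cell lines, siPAI-1 or Scr, 2 libraries per group) was sequenced as single 75-base reads with a stranded mRNA kit. Per gene, the authors deposited TPM and FPKM, given to 2 decimals. The submitters' processing notes name STAR 2.5.0, RSEM 1.2.25 and GRCh38, whereas the paper's methods name featureCounts, so the program behind the values is not certain. The deposited TPM values sum to 1000000 in each library within rounding, and the deposited FPKM values, scaled to length and reads, sum to different totals. The paper describes 3 independent knock-down experiments, and 2 libraries per group were analysed here. The 92 spike-ins, listed at 0 throughout, were left out, and 7201 of the 27475 genes were at 0 in every library.

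Tests used limma 3.58.1 in R 4.3.3 on log2(TPM + 0.1) values, with moderated variances that follow a trend in mean level and two-sided p-values adjusted by BH over all genes that were not 0 throughout the libraries fitted. The study's own test needs counts, so this test took its place. The fits compared the lines within Scr and within siPAI-1 and the siRNAs within each line, on the 4 libraries concerned, and an interaction term was fitted on all 8. The knock-down fits were tried on simulated data with 200 changed genes. They recovered 59% (UM-UC-3, 18094 genes) and 74% (RT112, 18100 genes) of 4-fold changes. They recovered 0% and 5% of 2-fold changes, and called 0 unchanged genes. The changed genes had a mean of at least 1 TPM, and the spread between libraries was assumed. These shares therefore do not apply to CCL20 and IL6, to CXCL3 in RT112, or to CXCL8, IL1A and IL1B in UM-UC-3, which lie below that level. Depth was estimated as the number of reads, between 20 and 45 M, that brings FPKM values of short genes closest to whole reads. After scaling, 82.5% to 87.3% of these values lay within 0.15 of a whole read, and multiples of this depth would also give near-whole reads. The range was set around the average depth that the methods state. Reads per gene were computed with this depth and the longest annotated transcript of the gene. They are estimates that carry error from both, besides counting error.

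The members and gene lists were chosen with earlier results of these data known. By rule, the text names all 10 members and up to 4 genes per list that were called between the lines in Scr, taken by mean TPM. Up to 2 markers per list were added. Outside this rule, it also names further receptor genes, PTGS2, PTPRC, and other genes of both loci and of the interleukin-1 family. The level of the siRNA target is not reported here. Same-numbered libraries of different groups did not deviate together (correlations of -0.04 to 0.10 over 12803 genes), so libraries were not paired. Transcript lengths and shared windows used GENCODE transcripts, without coordinates. Alternatives were other pseudocounts, a mean of at least 1 TPM, FPKM, median-of-ratios scaling, no trend, a fit over all 8 libraries, the replicate number as a block, and leaving out each library.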

Additional observations from a re-analysis of the deposited data

Results flagged for a closer look

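Of 55 genes named by rule and tested in both lines, 4 (7.27%) had knock-down values that moved in opposite directions in the 2 lines in every library. This stood beside 6.25% of all 16691 genes and 9 of the 139 genes on the lists. None of the 4 is a chemokine or cytokine of the group described. The difference of the knock-down effects (RT112 minus UM-UC-3, log2) was tested with the limma interaction term, and none of the 4 passed it. CEBPB, a C/EBP factor, was higher with siPAI-1 in RT112 and lower in UM-UC-3, with a difference of 0.26 (BH-adjusted p = 0.716). IFI6, an interferon-stimulated gene, went the same ways, with a difference of 1.19 (BH-adjusted p = 0.694). COL3A1, a collagen gene that was at most 0.48 TPM in RT112, had a difference of 1.02 (BH-adjusted p = 0.691). PECAM1, an endothelial marker at 0.12 to 1.76 TPM over all libraries, had a difference of 2.93 (BH-adjusted p = 0.379).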

How the results depend on the processing

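Over 724 alternative values, 652 kept their direction and their side of the threshold, 13 lost a call, 6 gained 1, 28 moved and 25 changed sign, and the cause was not tested. The number of genes called without 1 library ranged from 5698 to 6564 between the lines in Scr (9909 with all), from 5294 to 7142 in siPAI-1 (10108 with all) and from 0 to 123 for the interaction (0 with all). A library left alone in its group was assumed to vary like the other group. Members called in Scr without 1 library were 2 to 3 higher and 2 to 3 lower, and in siPAI-1 2 to 3 higher and 2 to 4 lower. In UM-UC-3 knock-down, the genes past 2-fold and an unadjusted p under 0.05 were 362, with 23 at a pseudocount of 1 TPM, 63 with a mean of at least 1 TPM and 588 to 631 without 1 library. In RT112 they were 409, with 35, 83 and 632 to 675. With a mean of at least 1 TPM, 1 gene was called in UM-UC-3, and it was not a member. The fit over all 8 libraries called 2 genes in RT112 and took 1 member, CCL20, past the looser rule, as a pseudocount of 0.01 TPM did for CCL20 in UM-UC-3, also 1 member. Without the trend term, 7 genes had an interaction. The replicate numbers did not pair the libraries. With the replicate block, 9387 genes were called in Scr and 9365 in siPAI-1, 3 instead of 4 members were called higher in Scr (CCL20 at an adjusted p of 0.105), and no knock-down call changed.

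All values that changed sign belonged to differences that were not called. With FPKM, the UM-UC-3 knock-down difference of LIF was -0.0028, and with a pseudocount of 0.01 TPM the interaction of CCL20 was -1.60. Without 1 library, the line difference of IL6 in Scr ranged from -0.88 to 0.38. The UM-UC-3 knock-down difference ranged from -0.27 to 0.53 for CXCL2, -0.63 to 0.90 for IL6, -0.0498 to 0.54 for IL1A, -0.54 to 0.38 for IL1B and -0.20 to 0.21 for LIF. That of CXCL8 in RT112 ranged from -0.0512 to 0.16. The interaction ranged from -0.53 to 0.27 for CXCL2, -0.20 to 0.64 for CCL20, -1.29 to 0.25 for IL6, -0.61 to 0.31 for IL1B and -0.34 to 0.0696 for LIF. Depth limits CCL20, IL6, and IL1A and IL1B in UM-UC-3, which rest on at most 12.7 estimated reads per library.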

Other observations

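Of 11 interleukin-1 family genes, counted after their values were seen, 5 had lower values in both RT112 siPAI-1 libraries than in both Scr libraries (IL1A, IL1B, IL18, IL36RN and IL1RN). In 5 others the groups overlapped at 0.62 TPM or less (IL33, IL37, IL36A, IL36B and IL1F10), and IL36G was listed at 0. No test of the family is given. IL18, another interleukin-1 family cytokine, was at 54.81 and 54.81 TPM in RT112 Scr and at 42.7 and 46.0 TPM in siPAI-1. IL36RN, which encodes the interleukin-36 receptor antagonist, was at 3.40 and 4.69 TPM in Scr and at 2.21 and 2.22 TPM in siPAI-1. IL1RN was at 50.42 and 51.09 TPM in Scr and at 42.5 and 46.63 TPM in siPAI-1. Both knock-down libraries were lower for each of the 3 genes, as for 14.7% of all genes tested in RT112. The differences were -0.31, -0.82 and -0.19 (log2; limma, unadjusted p = 0.00953, 0.0372 and 0.0625), and none passed the test over all genes (BH-adjusted p = 0.838 each). In UM-UC-3, IL36RN and IL1RN were at or below 0.08 TPM, and IL18 was at 24.74 and 20.18 TPM in Scr and at 19.97 and 18.39 TPM in siPAI-1.

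IL32, a cytokine gene that was not called, is given here after its values were seen. In UM-UC-3, it was at 15.51 and 16.43 TPM in Scr and at 9.62 and 11.06 TPM in siPAI-1. Both knock-down libraries were lower (difference -0.63, 95% interval -0.95 to -0.30, log2; limma, unadjusted p = 0.00417, BH-adjusted p = 0.791), while CXCL1 was higher in the same libraries. In RT112, IL32 was at 2.60 and 1.74 TPM in Scr and at 1.64 and 1.13 TPM in siPAI-1. Both knock-down libraries were lower here too, with the nearest libraries at 1.74 and 1.64 TPM. Lower values without overlap were found for 17.1% of all genes tested in UM-UC-3 and 14.7% in RT112. The interaction for IL32 was 0.02 with an interval from -0.86 to 0.90.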
